A study of Mus musculus with 319 samples.

Results

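The 38 arrays described here are those of 319 on which Ngp, the gene of neutrophilic granule protein, was more abundant in the muscle RNA of the animal than in the pool of all animals. They were chosen by 1 probe, and its log2 ratio was above 0 on 38 arrays and at or below 0 on 281, called Ngp-high and Ngp-low below. The study measured muscle RNA of female and male F2 mice from a cross of C57BL/J6 (spelled C57BL/6J in the series title) and C3H/HeJ, both on an ApoE null background, each hybridised in Cy3 against a common pool in Cy5. All animals had a high fat "Western" diet between weeks 8 and 24 of age, so the lack of ApoE and the diet were shared by both classes. The labels give no treatment, genotype, batch, date or named muscle, and all arrays form 1 group, with 2 arrays sharing the animal number 227. The classes come from a value measured on the same arrays, so differences in gene level between them are given as a description, with no test. Tests were kept to slopes on calprotectin and osteocalcin and their difference between the classes, correlations of genes within a class, animal number and the Y-linked Eif2s3y.

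Neutrophils are made in the bone marrow, where promyelocytes fill primary granules with enzymes such as myeloperoxidase and later precursors fill secondary granules with lactoferrin, cathelicidin and Ngp. Mature neutrophils in blood and tissue have largely stopped transcribing granule genes, but still hold much RNA for S100a8 and S100a9, the subunits of calprotectin. Marrow also holds red cell precursors, megakaryocytes, dividing progenitors and B cell precursors, and lies inside bone, whose osteoblasts make osteocalcin (Bglap) and bone sialoprotein (Ibsp).

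The upstream sequences of Ngp, which chose the arrays, and of Bglap, which marks bone, are shown because the data turn on these 2 genes. Each line holds the 250 bases before the start of the gene, 5′ to 3′ on the strand of the gene, from RefSeq on GRCm38.p6. Ngp lies on the plus strand, with this stretch at chr9:110419558-110419807, and Bglap on the minus strand, with this stretch at chr3:88384467-88384716. Capitals in the Ngp line mark 2 matches to TTGCNNAA or TTNNGCAA, a form of the motif of C/EBP factors, which drive granulocyte genes. Capitals in the Bglap line mark ACCACA, a form of the RUNX motif (searched as ACCACA or TGTGGT), and TATAAA.
Ngp: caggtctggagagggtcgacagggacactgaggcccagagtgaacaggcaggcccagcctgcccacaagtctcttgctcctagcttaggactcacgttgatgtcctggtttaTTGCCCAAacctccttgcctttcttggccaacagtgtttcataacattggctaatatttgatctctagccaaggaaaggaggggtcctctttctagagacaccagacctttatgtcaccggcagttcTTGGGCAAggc
Bglap: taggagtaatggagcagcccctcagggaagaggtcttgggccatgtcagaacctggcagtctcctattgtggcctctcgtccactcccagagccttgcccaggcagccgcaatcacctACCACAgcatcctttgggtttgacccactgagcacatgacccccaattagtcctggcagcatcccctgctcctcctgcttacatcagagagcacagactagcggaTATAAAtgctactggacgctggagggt
The matches in Ngp begin 138 and 11 bases before the start, and those in Bglap 132 and 27 bases before it. Among 32851 promoters of that length, 9.56% held the C/EBP form, 14.0% the RUNX form and 7.59% the TATA form. The TATA form was searched in the direction of the gene, and the letters given for the other motifs cover both strands. Of the secondary granule genes, 9 had a promoter in the table and 5 held the C/EBP form (Fcnb, Lcn2, Ltf, Mmp8 and Ngp), against none of 5 primary granule genes. Of 19 bone genes with a promoter, 5 held the RUNX form (Bglap, Dmp1, Mepe, Runx2 and Spp1). A match describes letters only, and no binding was measured.

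Values are log2 ratios of the animal over the pool, converted from the deposited log10 ratios. Their direction was taken from Eif2s3y, a Y-linked gene, which lay at a median of 1.08 on 155 arrays and of -5.62 on 164, where a pool of all animals predicts 1.04 for carriers. Of 23382 probes, 23190 had a value on at least 80% of arrays and were used. The deposited log10 values end at 2 and -2, so the most extreme log2 ratios below are at that limit. Whole-array medians lay between -0.08 and 0.14, and the SD over an array between 0.25 and 1.00 on the Ngp-high arrays and between 0.21 and 1.08 on the Ngp-low. Of 50721 pairs of arrays, 3708 correlated below -0.3, the lowest at -0.602, although the labels give every array the same dyes. As ratios to a pool, the values give no absolute level, so no gene can be called absent and muscle markers cannot show how much of the RNA came from muscle.

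On the Ngp-high arrays Ngp lay between 0.13 and 4.99, with a median of 1.29. On the Ngp-low arrays it lay between -4.91 and -0.03, with a median of -3.39. The values ran through the threshold without a gap. The 3 arrays just inside lay at 0.13, 0.20 and 0.26, and the 3 just outside at -0.03, -0.04 and -0.08, and 35 arrays lay between -1 and 1. Against this range the label of marrow described only some of the arrays. Cd22, a receptor of mature B cells, lay between -4.93 and -1.26 on 21 of the Ngp-high arrays and between 0.43 and 3.21 on the other 17, with none between. Osteocalcin, the mean of the Bglap and Bglap2 probes, had a median of 0.70 on the 21 (range -1.11 to 4.98) and of -1.09 on the 17 (range -1.37 to -0.54). The 21 arrays are therefore called Cd22-low and the 17 Cd22-high, a split chosen after these values were seen, and each is set against Ngp-low arrays of the same Cd22 class (242 and 39).

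**Figure D1:**
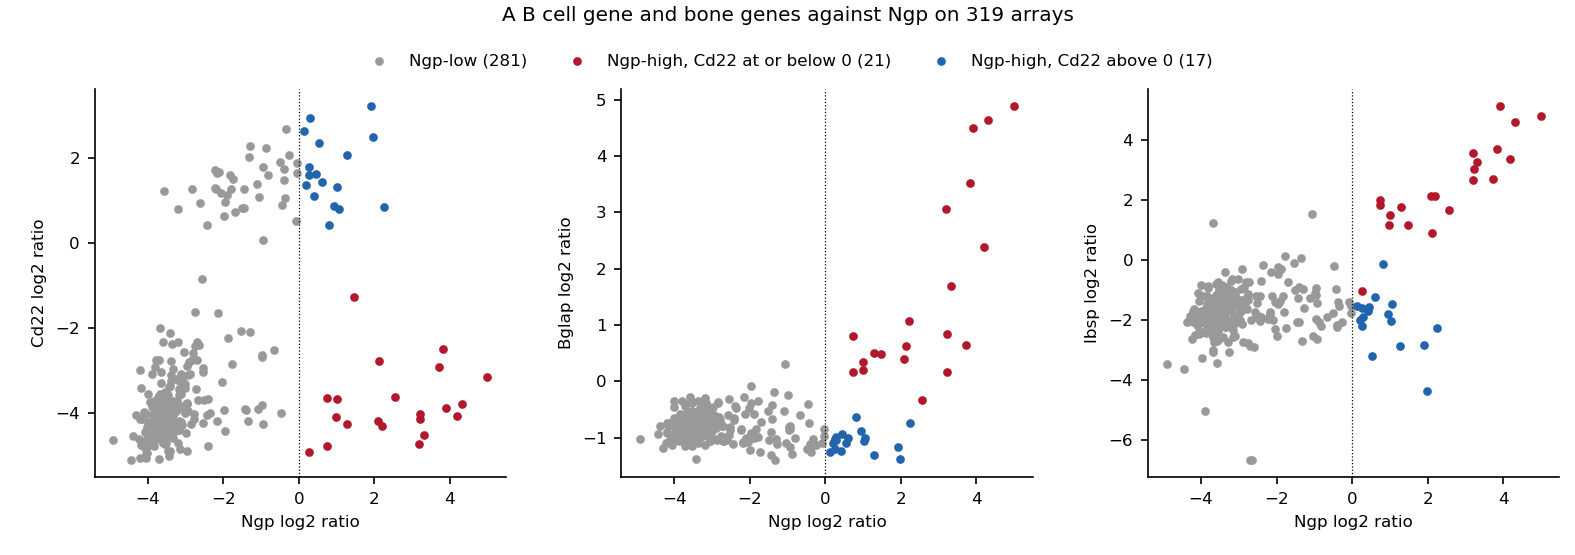
Log2 ratios of Cd22, Bglap and Ibsp (y axes) against Ngp (x axes), 1 point an array, with the threshold at 0 as a dotted line. The 21 Cd22-low Ngp-high arrays (red) reach 4.88 for Bglap and 5.10 for Ibsp, and the 17 Cd22-high arrays (blue) lie below 0 for both.

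Over all 38 against 281 arrays, the granule genes stood out furthest. Of 23190 probes, 77 were higher by at least 1 log2 unit (0.332%), 372 by at least 0.5 (1.6%), and 2 were lower by at least 1 (0.00862%). Past that difference lay 2 of 5 primary granule probes, 4 of 12 secondary granule probes (3 of 11 without Ngp, which the rule used), both calprotectin probes, 1 of 26 erythroid, 1 of 59 dividing-cell and 3 of 20 bone matrix probes. The same contrast held 5 of 16 probes of mature B cells, 3 of 17 of T and NK cells and 3 of 7 of lymphoid stroma. The median difference was 0.44 over the B cell list, 0.27 over the T cell list, 0.52 over the macrophage list, and -0.02 over all probes. In RNA of whole tissue, more cells of a type and more RNA per cell cannot be told apart.

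Within the Cd22-low arrays, 21 against 242, the differences of the lymphoid lists were smaller, and those of primary granule, erythroid, bone and cartilage lists larger, than over all arrays. The median of the primary granule list went from 0.98 to 1.24, of the erythroid from 0.16 to 0.25, of the bone matrix from 0.21 to 0.39 and of the cartilage list from 0.23 to 0.53. Other marrow lists went the opposite way, with the dividing-cell probes past 0.5 going from 9 to 4, those of B cell precursors from 3 to 1, and the progenitor median from 0.14 to 0.02. A difference of at least 1 was reached by 36 probes (0.155%) and one of at least 0.5 by 87 (0.375%), while 8 were lower by at least 1 (0.0345%). The larger difference was reached by 3 of 5 primary granule, 4 of 12 secondary granule (3 of 11 without Ngp), 3 of 26 erythroid, 2 of 13 megakaryocyte, 2 of 14 progenitor, 5 of 20 bone matrix and 4 of 14 cartilage probes, besides both calprotectin probes. No probe of the B cell (16), T cell (17), lymphoid stroma (7), spleen (11), macrophage (13), keratinocyte (17) or adipocyte (12) lists differed upward by even 0.5, and their medians lay between -0.09 and 0.04. Of the muscle fibre probes, 4 of 19 were higher by at least 0.5, with a median difference of 0.05. All differences below come from this comparison unless another is named, with the standard error of the linear model as SE. That SE takes 1 residual spread for both classes, although the SD of osteocalcin was 1.74 on the 21 arrays and 0.22 on the 242. For genes that vary more on the smaller class, the SE is therefore too small.

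**Figure D2:**
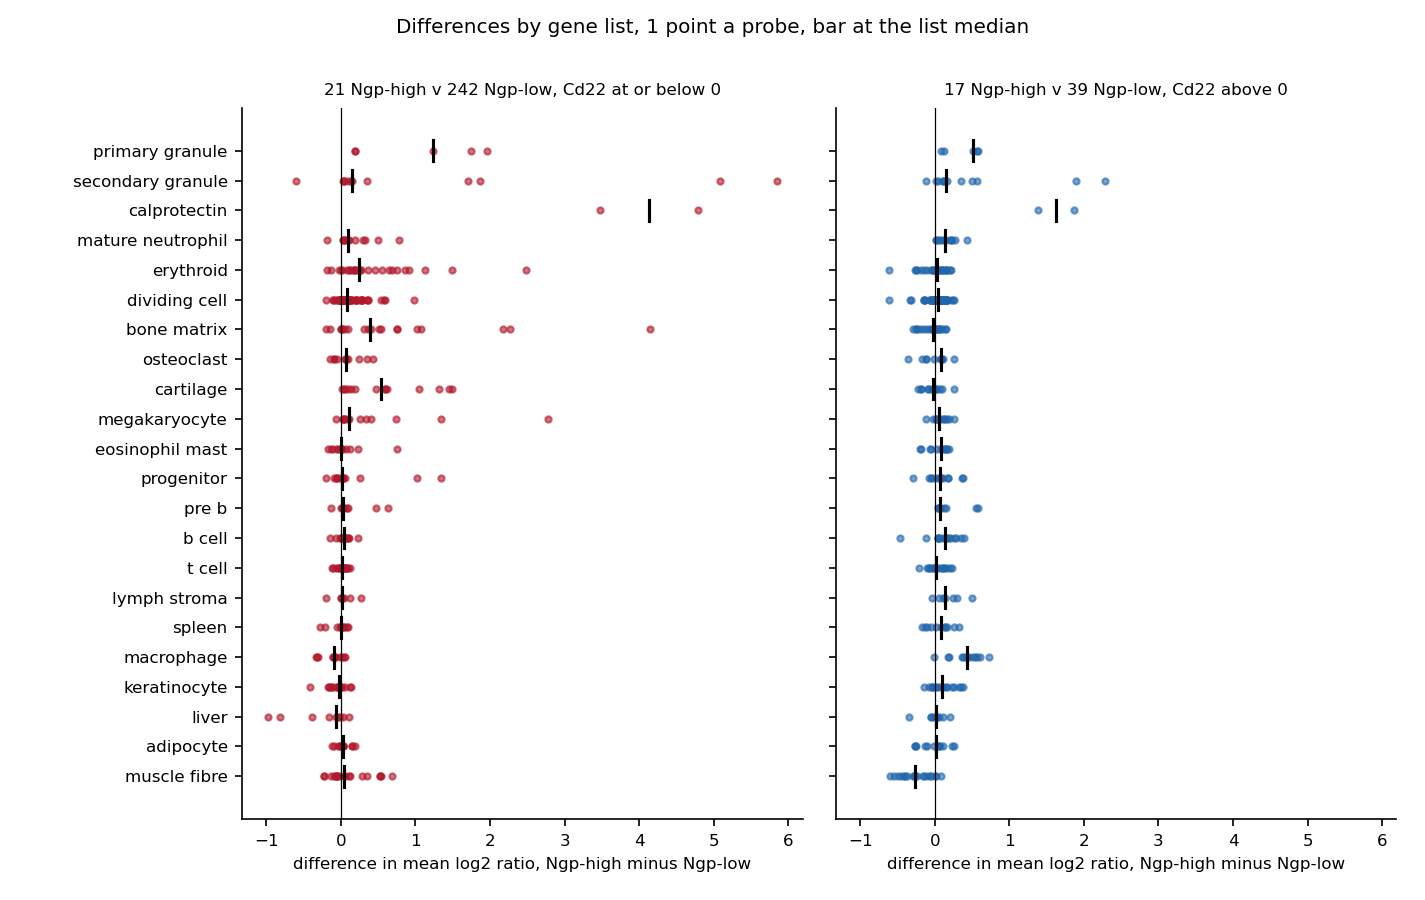
Difference in mean log2 ratio, Ngp-high minus Ngp-low (x axis), for every probe of each gene list (y axis), with a bar at the list median. On the left, for Cd22-low arrays, granule, erythroid, bone, cartilage and megakaryocyte lists reach past 1, up to 5.85 for Ngp, while lymphoid lists stay near 0. On the right, for Cd22-high arrays, only granule and calprotectin probes pass 1.

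Some granule genes of both stages were high. Of the 12 secondary granule probes 4 passed 0.5, 1 of them Ngp, with a list median of 0.14, and Hp, haptoglobin, was lower by as much (-0.60, SE 0.31). Camp, which encodes the antimicrobial peptide cathelicidin, lay between 0.47 and 5.16 on the 21 arrays, with a median of 2.31, and between -6.64 and -0.14 on the 242. The classes did not overlap, and the difference of 5.09 (SE 0.17) is 34.0-fold. S100a8 lay between -0.02 and 4.53 (median 1.84) against -2.77 to 0.44, with a difference of 3.47 (SE 0.15). S100a9 differed by 4.79 (SE 0.20), or 27.7-fold. These 3 genes are made by late precursors, and calprotectin RNA persists in mature cells. Ltf, lactoferrin, had a median of 1.42 (range -0.27 to 3.08) against -0.63 (range -1.61 to 2.45), a difference of 1.87 (SE 0.11) between overlapping classes.

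The primary granule genes, made mainly at the promyelocyte stage, followed. Mpo, myeloperoxidase, lay between -0.39 and 3.60 on the 21 arrays, with a median of 1.24, and between -0.97 and 0.49 on the 242. Of the 21 arrays, 20 lay above the 95th percentile of all Ngp-low arrays (0.02) and 18 above the highest of them. Its difference was 1.96 (SE 0.09), or 3.89-fold. Ms4a3, a membrane protein of granulocyte and monocyte precursors, differed by 1.75 (SE 0.09), and Ctsg, cathepsin G, by 1.24 (SE 0.07). Elane and Prtn3, serine proteases of the same granules, differed by only 0.19 (SE 0.03) each, and each lay above the 95th percentile of the 242 on 9 of the 21 arrays. Not every granule probe moved alike. Chil3, a chitinase-like protein of myeloid precursors, differed by 1.70 (SE 0.09) on 1 probe and by 0.14 (SE 0.03) on another. Of the 12 probes for mature neutrophil genes, none passed 1, and Cxcr2, the chemokine receptor of circulating neutrophils, differed by 0.19 (SE 0.03). The median of this list was 0.10.

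Genes of red cell precursors were higher on some of the 21 arrays. Hemgn, a nuclear protein of blood precursors, lay between -0.45 and 4.53, with a median of 1.65, against -6.64 to 2.93 with a median of -0.70 on the Ngp-low arrays. On 6 arrays it lay above every Ngp-low array, and the others overlapped. The difference was 2.48 (SE 0.20). Gata1, the transcription factor of the red cell and megakaryocyte lineages, had a median of 0.66 (range -0.63 to 2.66) against -0.28 (range -1.09 to 1.24), a difference of 1.13 (SE 0.08). Ermap, a membrane protein of red cells, differed by 1.49 and Slc4a1, the anion exchanger of red cells, by 0.86 (SE 0.08). The globins of circulating red cells did not set these arrays apart: Hbb-b1 lay between -1.77 and 0.98 (median -0.05) against -3.74 to 2.12 (median -0.42), and no Ngp-high array lay above the 95th percentile of the Ngp-low arrays.

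Of 13 megakaryocyte and platelet probes 3 were higher by at least 0.5, with a list median of 0.11. Ppbp, the platelet chemokine precursor, lay between -1.24 and 4.97, with a median of 1.47, against -2.53 to 0.97 with a median of -1.04. It was above the 95th percentile of the Ngp-low arrays on 20 of the 21 and above all of them on 13. The difference of 2.78 (SE 0.15) is 6.85-fold. Clec1b, a receptor of platelets, differed by 1.34 (SE 0.11), but it was higher still on the 17 Cd22-high arrays, where it lay between 0.72 and 2.32 against -2.33 to 1.33 on the 21. Itga2b, the platelet integrin chain, had a median of -0.05 (range -0.64 to 1.97) against -0.45 (range -0.80 to -0.03), a difference of 0.73 (SE 0.05).

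Genes of cell division and of progenitors were higher by less, and with wide overlap. Birc5, survivin, which acts at the spindle, lay between -1.68 and 1.63 (median -0.45) against -2.29 to 0.66 (median -1.18), a difference of 0.98 (SE 0.12). Of the 59 dividing-cell probes, 4 passed 0.5 and none passed 1, and their median was 0.08. Myb, a transcription factor of blood progenitors, had a median of -0.27 (range -1.83 to 2.05) against -1.51 (range -2.84 to 0.79), a difference of 1.35 (SE 0.13). Gfi1, a repressor needed for granulocyte formation, differed by 1.03 (SE 0.10). On the 17 Cd22-high arrays the medians of Birc5, Myb and Gfi1 were 0.98, 1.05 and 1.06, above those of the 21. Kit and Flt3, receptors of early progenitors, differed by 0.03 (SE 0.06) and 0.02 (SE 0.07). Rag1, the recombinase of lymphocyte precursors, differed by 0.63 (SE 0.08).

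Bone genes differed by up to several log2 units. Ibsp, a matrix protein of osteoblasts, lay between -1.02 and 5.10 on the 21 arrays, with a median of 2.13, and between -6.64 and 1.53 on the 242, with a median of -1.66. It was above 0 on 20 of the 21 and on 4 of the 242, and its difference of 4.15 (SE 0.21) is 17.7-fold. Bglap lay between -1.02 and 4.88, with a median of 0.65, against -1.37 to 0.31 with a median of -0.77. It was above 0 on 19 of the 21 and on 1 Ngp-low array. The difference was 2.17 (SE 0.12), and 2.27 (SE 0.13) for Bglap2. The probes of Bglap and Bglap2 correlated at 0.998 over the 38 arrays, and since these genes are near-identical copies their signals cannot be told apart.

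Other genes of the osteoblast lineage varied in size. Dlx5, a homeobox factor of osteoblasts, had a median of 0.69 (range -0.17 to 3.15) against -0.15 (range -0.66 to 0.67), a difference of 1.07 (SE 0.07). Col1a1, the main collagen of bone and tendon, differed by 1.03 (SE 0.16). Mepe and Dmp1, proteins of osteocytes, differed by 0.75 (SE 0.12) and 0.40 (SE 0.10). No probe of the osteoclast list (11) passed 0.5. Among cartilage genes, Acan, the large proteoglycan aggrecan, lay between -0.22 and 3.14 (median 1.14) against -1.83 to 0.70 (median -0.14), and 14 of the 21 arrays exceeded every Ngp-low array. Its difference was 1.45 (SE 0.09). Prg4 (1.49), Chad (1.32) and Comp (1.04), matrix proteins of joint, cartilage and tendon, also passed 1, while Col2a1, the main cartilage collagen, differed by 0.19 (SE 0.09).

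**Figure D3:**
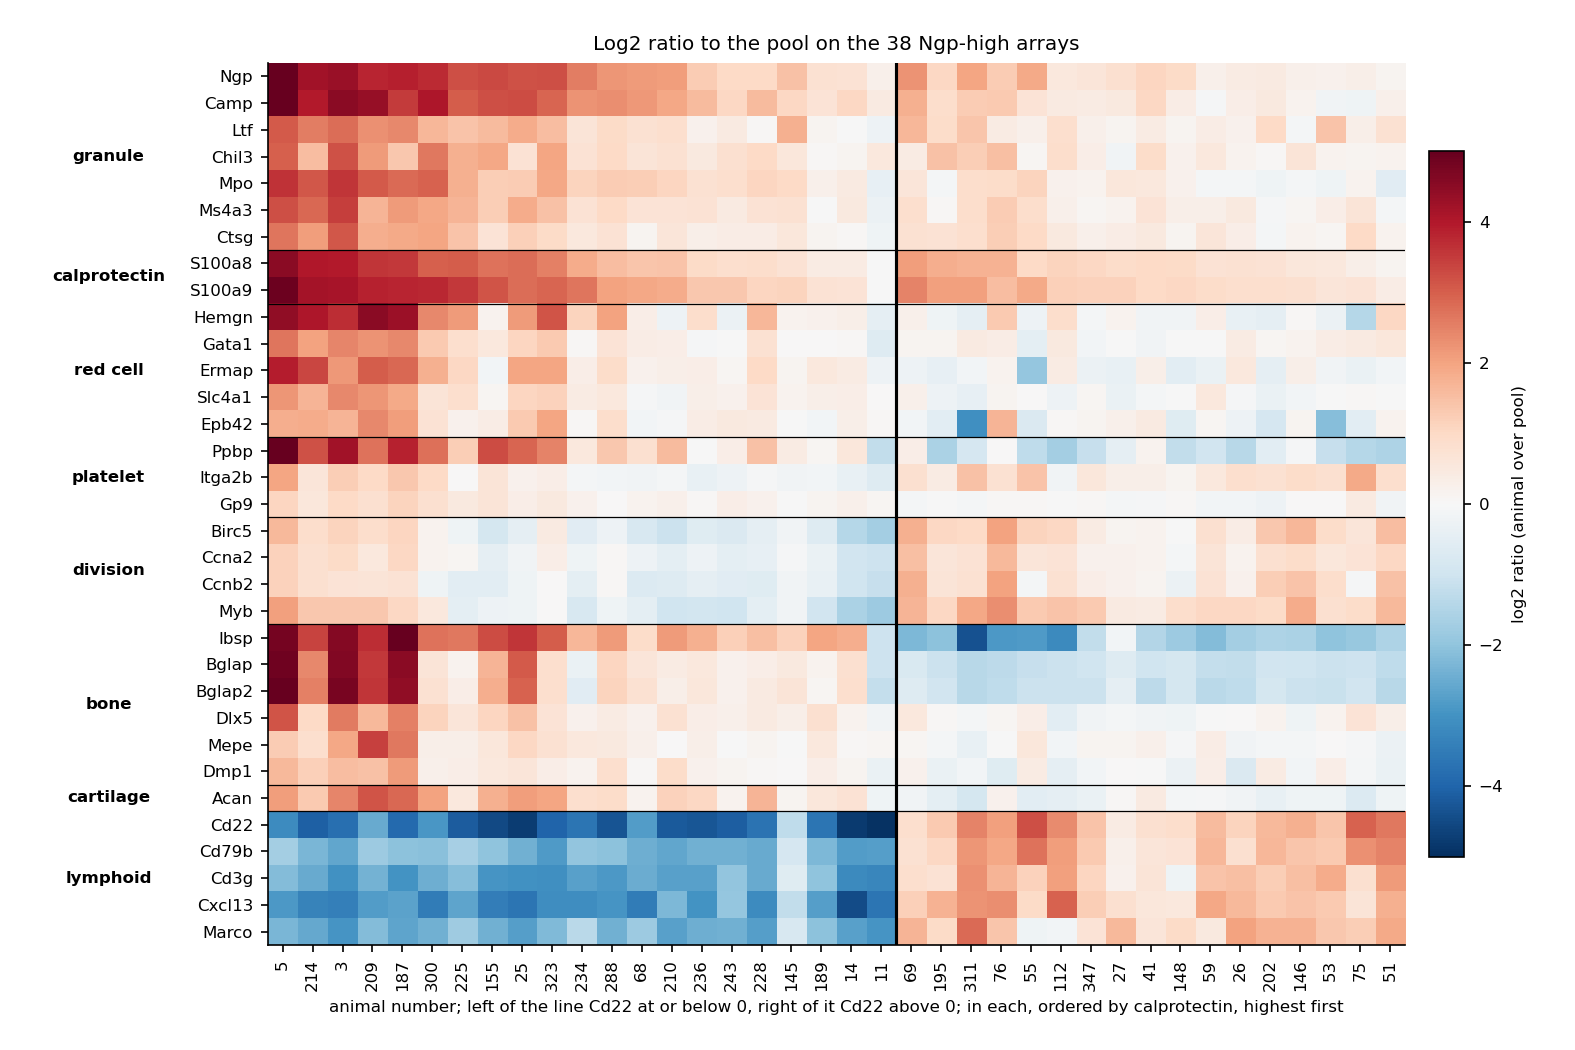
Log2 ratio (colour) of 33 genes (rows, grouped by role) on each of the 38 Ngp-high arrays (columns, by animal number). Left of the vertical line are the 21 Cd22-low arrays, ordered by calprotectin, on which granule, red cell, platelet and bone genes are mostly high. Animal 11 is low for most of them but not for Camp (0.47), and others are low for some genes, as animal 234 for Bglap (-0.32). Right of it are the 17 Cd22-high arrays, with Ibsp, Bglap and Bglap2 below 0 on all and Dlx5, Mepe and Dmp1 on either side of 0. For Chil3 the probe that differed by 1.70 is drawn.

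To ask whether these kinds of gene were high on the same arrays, 6 genes chosen after their values were seen (Mpo, Hemgn, Ppbp, the bone genes Ibsp and Bglap, and Acan) were counted as high above the 95th percentile of all Ngp-low arrays. Over all probes, 54 (0.233%) were above the 95th percentile of the 242 on most of the 21 arrays, and 26 (0.112%) above that of the 281 on most of the 38. Of the 21 Cd22-low arrays, 14 were high for all 6 genes, 4 for 5, 2 for 4 and 1 for none. The array with none was that of animal 11, whose Ngp of 0.26 and Bglap of -1.02 lay at the lower end. Among the 17 Cd22-high arrays none reached 4 genes, and among 281 Ngp-low arrays 1 did. That array, of animal 29, had Ngp at -1.07, Mpo at 0.49, Ibsp at 1.53, Bglap at 0.31 and Acan at 0.70. At least 4 of the 6 genes were thus high on 20 of the 21 arrays, which is a count and not a test. By the same cut Birc5 was high on 5 of the 21 arrays and 11 of the 17, Ccna2 on 5 and 12, and Myb on 4 and 8. Of the 14 Ngp-low arrays above the cut, 14 were Cd22-high for Birc5, 14 for Myb and 13 for Ccna2. The cut for these genes was thus set by Cd22-high arrays. Their counts therefore cannot show whether they rose with the 6 genes on the 21 arrays.

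The arrays were also graded. The level of calprotectin, as the mean of S100a8 and S100a9, which the rule did not use, ran from -0.02 to 4.72 over the 21 arrays. Each probe was fitted on it with limma within these arrays, without the probes of Ngp, S100a8 and S100a9, and p values were adjusted over 23187 probes by Benjamini-Hochberg. At an adjusted p below 0.05, 137 probes rose with calprotectin (0.591%) and none fell (0.0%). Before adjustment 729 rose and 555 fell at p below 0.05. Of the 137, 97 have a gene name and 54 of those belong to the marrow and bone lists. The fit over all 38 arrays called 75 probes upward (0.323%) and 7 downward (0.0302%), and 55 of the former were shared, which is 40.1% of the 137 and 73.3% of the 75. After quantile normalization of all arrays, the fit over the 38 instead called 1476 upward and 1747 downward. The 2 arrays of highest calprotectin, of animals 5 and 214, were then left out together, a setting chosen after the data were seen, and 66 probes rose (0.285%), all of them among the 137. The erythroid calls then fell from 11 to 7, the dividing-cell calls from 12 to 7 and the bone calls from 6 to 4.

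All 5 primary granule probes rose, with slopes in log2 units per log2 unit of calprotectin. Mpo had a slope of 0.77 (SE 0.06, adjusted p = 3.32e-07), Ms4a3 0.68 (SE 0.06) and Ctsg 0.62 (SE 0.06). Elane and Prtn3 had slopes of 0.12 and 0.10, and without animals 5 and 214 Prtn3 no longer passed (adjusted p = 0.291). Of 11 secondary granule probes 4 rose, with Camp at 0.98 (SE 0.05, adjusted p = 7.99e-12), Ltf at 0.66, Chil3 at 0.56 on 1 of its probes and Mmp9, a gelatinase that is also on the osteoclast list, at 0.24. Of 12 mature neutrophil probes 3 rose, namely Itgb2l, Padi4 and Pglyrp1. Cebpe and Gfi1, transcription factors of granulocyte precursors, rose by 0.13 and 0.53.

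Of 26 erythroid probes 11 rose and none fell. Hemgn had a slope of 1.06 (SE 0.14, adjusted p = 9.82e-05), Ermap 0.76, Gata1 0.64, Slc4a1 0.48, Epb42, a membrane skeleton protein, 0.47, Nfe2 0.45 and Klf1, the master factor of globin genes, 0.24. Hbb-b1 did not pass, with a slope of 0.18 (SE 0.12, adjusted p = 0.977). Of 13 megakaryocyte probes 6 rose, with Ppbp at 1.06 (SE 0.11, adjusted p = 3.57e-06), Clec1b at 0.63, Itga2b at 0.44 and Gp9 at 0.22. All 6 were also called without animals 5 and 214.

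Of 59 dividing-cell probes 12 rose and none fell, against 0 of 59 in the fit over all 38 arrays. Birc5 had a slope of 0.55 (SE 0.07, adjusted p = 0.000168), Cenpe, a kinetochore motor, 0.41, Ccna2, cyclin A2, 0.39 and Ccnb2, cyclin B2, 0.37. In the fit over all 38 arrays the slope of Birc5 was 0.18 (SE 0.12, adjusted p = 0.645). Birc5 lay between -0.03 and 2.02 on the 17 Cd22-high arrays, whose calprotectin had a median of 1.01 against 2.26 on the 21. Myb rose by 0.68 (SE 0.07, adjusted p = 8.03e-06), and Rag1 and 1 probe of Vpreb1, genes of B cell precursors, by 0.37 and 0.26. None of the 16 probes of mature B cells passed, nor of 17 T cell, 11 spleen or 13 macrophage probes.

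Of 20 bone matrix probes 6 rose. Ibsp had a slope of 0.92 (SE 0.11, adjusted p = 4.91e-05), Bglap 0.98 (SE 0.17, adjusted p = 0.00232), Dlx5 0.52, Dmp1 0.36 and Pth1r, the receptor of parathyroid hormone, 0.21. The sixth was the Bglap2 probe. Without animals 5 and 214, Bglap, Bglap2, Dlx5 and Ibsp were still called, with Bglap at 0.94 (SE 0.20, adjusted p = 0.0431). Bglap was not spread evenly. It fell in clusters of 15 arrays up to 1.70 and 6 arrays from 2.38, those of animals 3, 5, 25, 187, 209 and 214, of which 5 were also among the 6 arrays of the upper cluster of Mpo (all but animal 25). Of 14 cartilage probes only Acan rose, at 0.51 (SE 0.10, adjusted p = 0.0112). Col1a1 did not pass, at 0.57 (SE 0.13, adjusted p = 0.0515).

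**Figure D4:**
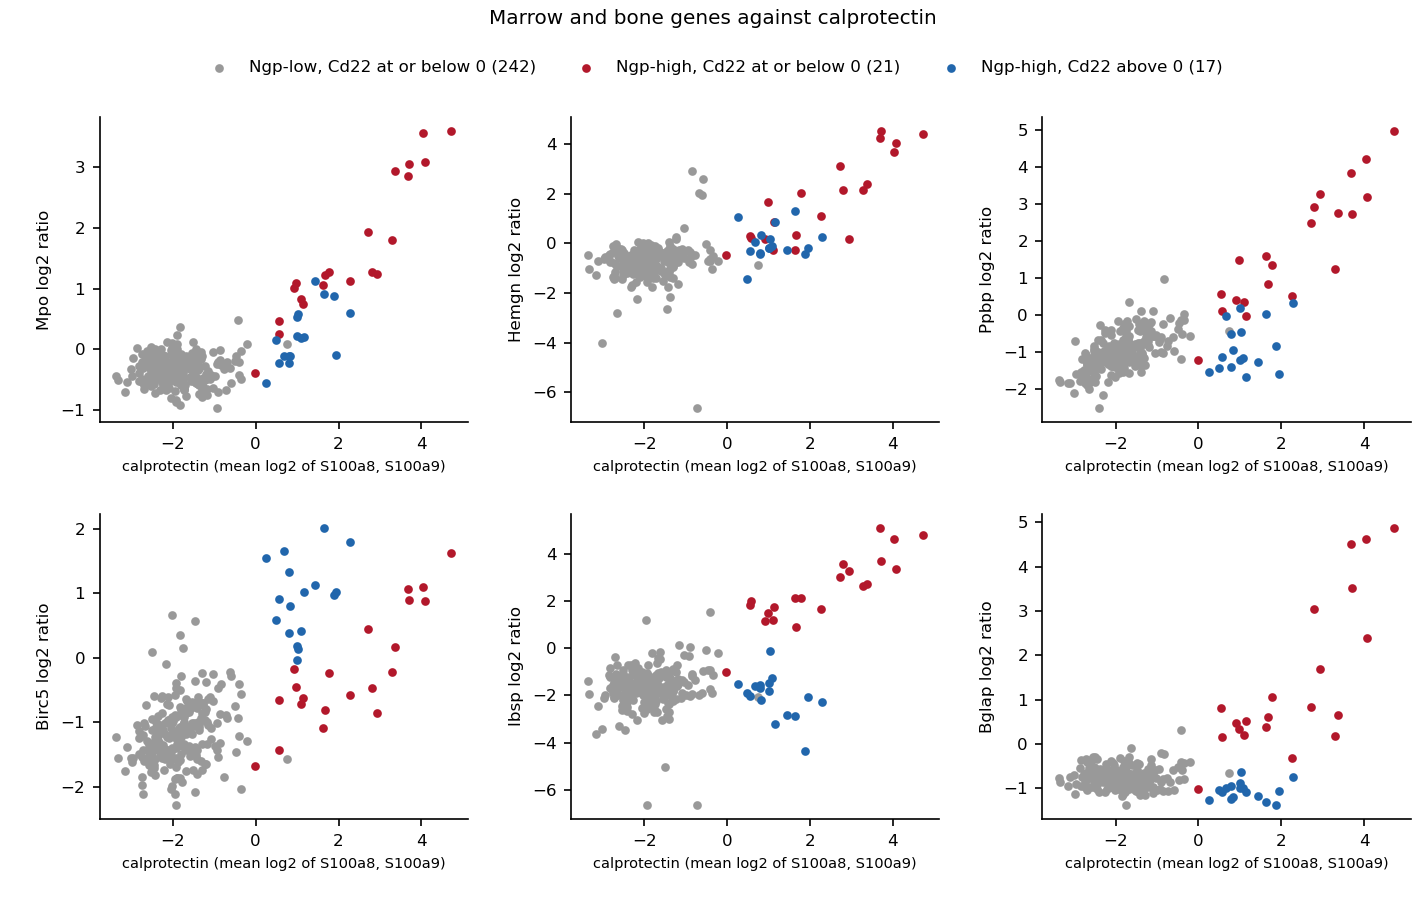
Log2 ratios of 6 genes (y axes) against calprotectin, the mean log2 ratio of S100a8 and S100a9 (x axes), 1 point an array. On the 21 Cd22-low Ngp-high arrays (red) all 6 climb, with slopes from 0.55 for Birc5 to 1.06 for Hemgn and Ppbp, and on the 17 Cd22-high arrays (blue) Ibsp and Bglap stay below 0.

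Pairs of single genes were also compared. Genes that fell in 2 clusters, with means over 4 within-cluster SDs apart, were left out of the pairs. Over all 38 arrays the planned genes left out were S100a8 (4.15 SDs), Cd22 and Marco, a receptor of macrophages. Of the 21 pairs of the other genes 3 passed, those of Elane, Alas2, an enzyme of heme synthesis, and Bglap. Elane and Bglap correlated at r = 0.70 (rho = 0.67, r without the 2 farthest arrays 0.66) and Alas2 and Bglap at 0.71 (rho = 0.68, r without the 2 farthest arrays 0.67), each with a permutation p of 1e-05 and an adjusted p of 0.000105 for r. Elane and Alas2 correlated at 0.52 (rho = 0.53, r without the 2 farthest arrays 0.53, permutation p = 0.00083, adjusted p = 0.00581). These 38 arrays join both Cd22 classes. By the same permutation test Elane and Alas2 passed in neither class, at r = 0.40 within the 21 (adjusted p = 0.157) and 0.13 within the 17 (adjusted p = 0.895). Within the 17, Bglap correlated at -0.01 with Elane and 0.29 with Alas2, and within the 21 it fell in clusters and was left out. Within the 21 arrays 78 pairs of genes without clusters, 4 of the genes (Hemgn, Birc5, Ibsp and Ppbp) having been added after seeing the data, were compared by permutation tests of 100000 resamples, and 33 passed an adjusted p of 0.05, all with positive r. S100a8 correlated with Hemgn at r = 0.87 (rho = 0.86), with Birc5 at 0.86 (rho = 0.78), with Ibsp at 0.88 (rho = 0.86) and with Ppbp at 0.92 (rho = 0.86), each with a permutation p of 1e-05, the smallest these resamples can give, and an adjusted p of 7.1e-05 for r. Leaving out the 2 arrays whose S100a8 was farthest from its median gave r of 0.83, 0.80, 0.87 and 0.90. S100a8 was kept here at a separation of 3.98 SDs, just under the cut, with no array between 1.842 and 2.515. Hemgn and Birc5 correlated at r = 0.93 (rho = 0.88), and Ibsp and Ppbp at r = 0.93 (rho = 0.88), with the same permutation p. Top2a, a topoisomerase of dividing cells, passed with none of the genes, at r = 0.15 with S100a8 (rho = 0.18, permutation p = 0.512, adjusted p = 0.713) and 0.22 with Birc5. By r, Cd22 passed only with Marco (r = 0.70, permutation test, adjusted p = 0.00379). By rho it passed with Marco (rho = 0.59, adjusted p = 0.0182), Elane (rho = 0.54, adjusted p = 0.0326) and Birc5 (rho = 0.53, adjusted p = 0.0361). Within the 17 Cd22-high arrays 91 pairs were compared and none passed by the permutation test of r. Over the 281 Ngp-low arrays 9 of 28 pairs passed, 3 of them with positive r. There S100a8 correlated at -0.29 with Bglap and -0.23 with Elane, and at 0.25 with Alas2 and 0.35 with the platelet gene Pf4.

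The Ngp-low arrays gave smaller slopes for most of these genes. Over the 242 Cd22-low arrays, calprotectin ran from -3.36 to 0.75, and 2058 probes rose with it (8.88%) and 3088 fell (13.3%). Of 13 macrophage probes 12 rose there, and 10 of 19 muscle fibre probes fell. Mpo had a slope of 0.01 (SE 0.02), Bglap of 0.00 (SE 0.02) and Hemgn of 0.18 (SE 0.07, limma adjusted p = 0.0612), while Ppbp rose by 0.46 (SE 0.04). The difference between the slopes was tested as an interaction over the 263 Cd22-low arrays, and 182 probes had a larger slope on the Ngp-high arrays (0.785%) and 48 a smaller one (0.207%). Larger slopes were found for 5 of 5 primary granule, 9 of 26 erythroid, 6 of 13 megakaryocyte, 8 of 59 dividing-cell, 9 of 20 bone matrix and 6 of 14 cartilage probes. Mpo differed by 0.76 (SE 0.05, adjusted p = 4.2e-37) and Bglap by 0.98 (SE 0.07, adjusted p = 5.53e-30). Hbb-b1, which rose by 0.77 on the Ngp-low arrays, had a difference of -0.58 (SE 0.19, adjusted p = 0.12). No macrophage probe passed the interaction. Over all 319 arrays the interaction called 6683 probes upward (28.8%) and 3472 downward (15.0%), with both Cd22 classes in each arm. Over all 281 Ngp-low arrays 4147 probes rose with calprotectin (17.9%) and 9222 fell (39.8%), and after subtraction of array medians 5706 and 6056 did.

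**Figure D5:**
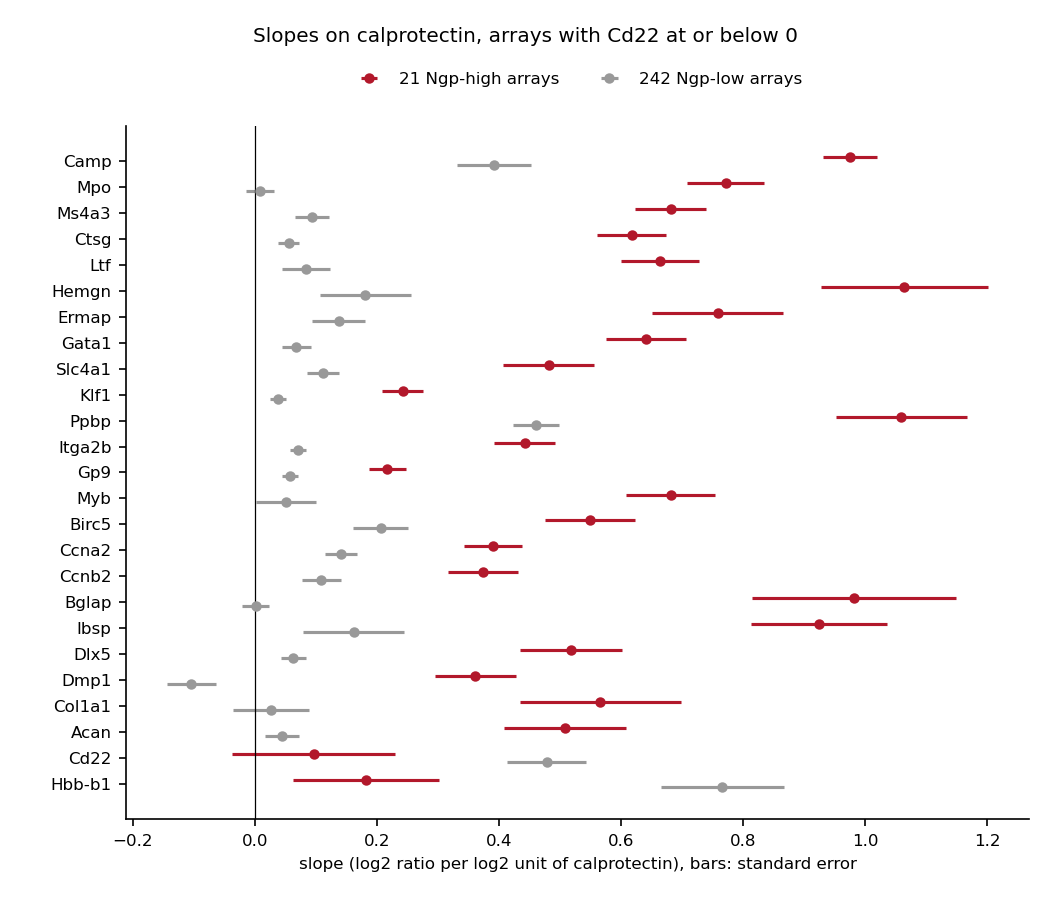
Slope of 25 genes (y axis) on calprotectin (x axis, log2 ratio per log2 unit, bars for the standard error) on Cd22-low arrays, for 21 Ngp-high arrays (red) and 242 Ngp-low arrays (grey). Mpo and Bglap lie at 0.77 and 0.98 on the former and at 0.01 and 0.00 on the latter.

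Taking osteocalcin as the axis asked which genes moved with bone. Within the 21 arrays 182 probes rose with it (0.785%) and 2 fell (0.00863%), by limma with adjustment over 23188 probes. Of the 137 that rose with calprotectin 109 also rose with osteocalcin, 79.6% of the former and 59.9% of the latter. Both axes were measured on the same arrays and moved together, so this overlap does not separate them. Of 18 bone matrix probes 8 rose, with Ibsp at 0.75 (SE 0.08, adjusted p = 1.03e-05), Col1a1 at 0.54, Dlx5 at 0.48, Cthrc1 at 0.43, Mepe at 0.42 and Dmp1 at 0.33. Of 11 osteoclast probes 3 rose with osteocalcin, against 1 with calprotectin, and the median slope of the list on osteocalcin was -0.001. Acp5 and Ctsk, enzymes of osteoclasts, rose by 0.37 and 0.31, whereas neither was called on calprotectin. Mmp13, the collagenase of bone and growth cartilage, rose by 0.77 (SE 0.08, adjusted p = 1.04e-05), against 0.69 (SE 0.18, adjusted p = 0.115) on calprotectin. Camp, Mpo and Hemgn rose with osteocalcin by 0.63, 0.53 and 0.78. Over all 38 arrays the osteocalcin fit called 1464 probes upward (6.31%) and 1492 downward (6.43%). With the Cd22 level as a covariate it called 108 and 1.

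Genes outside the lists added to both sides. The largest differences of the 21 arrays were those of Mmp13 (2.00, SE 0.15), with a median of 0.14 (range -1.30 to 3.88) against -1.37 (range -3.62 to 0.65), and Scrg1 (1.93, SE 0.18), a small protein first found in scrapie and known in cartilage. Mmp13 lay above the 95th percentile of all Ngp-low arrays on 8 of the 21. It also did on 5 of the 17 Cd22-high Ngp-high and 12 of the 39 Cd22-high Ngp-low arrays. Tnn, a tenascin of bone and tendon, differed by 1.33 (SE 0.29), and Slpi, a protease inhibitor of secretions and neutrophils, by 1.16 (SE 0.23). Rising with calprotectin were Trem3, a myeloid receptor, at 0.29 (SE 0.03, adjusted p = 3.57e-06), the histone genes H3c4 (0.39) and H1f5 (0.19), the kinesins Kif22 (0.28) and Kif15 (0.22), the histone chaperone Asf1b (0.21) and 1 of 3 probes of Hmgb2 (0.36). Among the most negative differences was Mmp12, macrophage elastase at -1.07 (SE 0.37), with a median of -3.26 (range -5.34 to 0.35) on the 21 arrays against -2.0 (range -4.96 to 1.91). Its classes overlapped widely. The Y-linked Eif2s3y and Kdm5d differed by -1.60 (SE 0.74) and -0.83 (SE 0.42). Olfr707, an odorant receptor, differed by -1.72 (SE 0.70) on 1 probe, which reached both ends of the scale, and by -0.01 and 0.01 on the other 2.

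On the 17 Cd22-high arrays some granule genes and calprotectin were high, and bone genes were not. Against 39 Ngp-low arrays that were also Cd22-high, 5 probes were higher by at least 1 (0.0216%), Ngp among them, and 59 by at least 0.5 (0.254%), and 3 were lower by at least 1 (0.0129%). On most of the 17 arrays, 9 probes lay above the 95th percentile of the 39 (0.0388%). Camp lay between -0.21 and 1.77 (median 0.44) against -4.02 to 0.03 (median -1.25), a difference of 1.89 (SE 0.25). S100a9 differed by 1.87 (SE 0.22), S100a8 by 1.38 (SE 0.19), Mpo by 0.58 (SE 0.09), Ms4a3 by 0.57 (SE 0.10) and Ctsg by 0.51 (SE 0.07). Of the macrophage list, 5 of 13 probes passed 0.5, with a median of 0.43, and 2 of 19 muscle fibre probes were lower by as much, with a median of -0.27. No mature neutrophil, erythroid, dividing-cell, bone, cartilage or megakaryocyte probe was higher by 0.5, whereas 2 of 10 probes of B cell precursors were. Ibsp lay between -4.37 and -0.14 and Bglap between -1.38 and -0.64, below 0 on all 17 arrays. Within these arrays limma called 1 probe upward with calprotectin (0.00431%), that of Camp, and 1 downward. Before adjustment 195 rose and 137 fell.

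Other lymphoid genes went with Cd22, the B cell gene that set the 17 arrays apart, so their counts are a description. Cd79b, a chain of the B cell receptor, lay above the 95th percentile of the Ngp-low arrays on 9 of the 17 and on none of the 21. The same counts were 8 and 0 for Cd3g, a chain of the T cell receptor, and 7 and 0 both for Cxcl13, the chemokine of B cell follicles, and for Marco, a scavenger receptor of spleen and lymph node macrophages. That percentile by its definition leaves 14 of the 281 Ngp-low arrays above it for any of these genes. For each of them all 14 were among the 39 Cd22-high Ngp-low arrays, so these genes were not particular to the 17. The part of lymphoid tissue genes in the neutrophil signal of the 17 arrays was not tested.

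Animal number, the only order the labels give, was lower on the Ngp-high arrays, with a mean of 145 (SD 103, n = 38) against 191 (SD 104, n = 281) and a two-sided permutation p of 0.00981. Within the Cd22-low arrays the means were 167 (SD 104, n = 21) and 199 (SD 101, n = 242), with a permutation p of 0.173. The Cd22-high arrays had a median number of 75 where Ngp-high and 88 where Ngp-low. The Cd22-low arrays had medians of 209 and 211.5 in the same order. Eif2s3y lay above -2 on 15 of 38 Ngp-high and 140 of 281 Ngp-low arrays (two-sided Fisher's exact p = 0.3). In the Cd22-low arrays it did on 6 of 21 and 123 of 242 (p = 0.0677 by the same exact test).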

How the data were processed

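The authors deposited 1 log10 ratio per probe and array. Per the labels, Cy3 marked the animal and Cy5 the pool. Background correction and normalization before deposit are not given in the sources used here, and the log base and direction were derived from the data, whose values end at exactly 2 and -2. Ratios were converted to log2 and not normalized again. Probes with a value on 80% of arrays were kept, and blanks were left out of each fit (0.654% of values). Of the probes, 13639 had 1 gene symbol, 48 several and 9695 none, and 12647 were named through RefSeq GRCm38.p6.

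Fits used limma 3.58.1 in R 4.3.3, with scipy 1.17.1 for permutation and Fisher's exact tests. Precision is set by how many arrays a class holds. The p values measure the spread between animals, and 2 arrays that share the number 227 were kept as separate samples. The members and gene lists were chosen with earlier results of these data known. Named genes are list members, the 15 largest and 10 most negative differences and the 10 smallest adjusted p values per fit and direction outside the lists. In simulated data for the 21 Cd22-low arrays (23190 probes), 97% of 100 slopes set to 0.3 and 100% of those set to 0.6 were recovered. Also called were 9 probes with no slope set. The slopes were set only in probes of small SD, with normal noise independent between probes. Recovery for probes that vary as widely as the bone genes was therefore not measured. Alternatives were array medians subtracted, quantile normalization, no probe filter, robust regression, Cd22 as a covariate, an Ngp threshold of 1 and arrays left out. Fits split by Cd22 were added after seeing the data, except the comparison without arrays with Cd22 above 0.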

Additional observations from a re-analysis of the deposited data

Results flagged for a closer look

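Slopes on calprotectin differed between the Ngp-high and Ngp-low arrays with Cd22 at or below 0 by the interaction term of limma (21 and 242 arrays, adjusted over all probes). The slope on the Ngp-high arrays was larger by 0.76 for Mpo (adjusted p = 4.2e-37), 0.88 for Hemgn (adjusted p = 2.01e-06) and 0.60 for Ppbp (adjusted p = 6.85e-10). It was larger by 0.76 for Ibsp (adjusted p = 0.000813), 0.98 for Bglap (adjusted p = 5.53e-30) and 0.34 for Birc5 (adjusted p = 0.0183). Calprotectin lay between -0.02 and 4.72 on the former arrays and between -3.36 and 0.75 on the latter, so the slopes were taken over largely different ranges. Whether 1 curve would describe both was not tested. The model takes 1 residual spread for both classes. For Mpo and Bglap, whose slopes had larger SEs on the 21 arrays alone, the adjusted p values overstate the precision.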

How the results depend on the processing

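No paired analysis was possible because all arrays form 1 labelled group and their numbers name animals. Of the probe counts, those of differences of at least 1, 77 upward and 2 downward over all arrays, were 35 and 4 with Ngp above 1 as the threshold, 36 and 8 without arrays with Cd22 above 0, and 5 upward among only those arrays. The difference of medians gave 37 upward. Downward, subtracting array medians gave 1 and leaving out arrays with Krt14 above 1 gave 1. The slopes on calprotectin within the 38 arrays, 75 up and 7 down, became 1476 and 1747 after quantile normalization, 116 and 2 with Cd22 as a covariate, 226 and 97 by robust regression, 137 and 0 with Cd22 at or below 0 (0 down also without its 2 highest arrays) and 1 and 1 with Cd22 above 0. There were 46 up with Ngp above 1 and 4 down after subtracting medians. Within the Ngp-low arrays, 4147 up and 9222 down became 2453 and 3094 with the covariate and 2058 and 3088 with Cd22 at or below 0, and 6056 fell after subtracting medians. The interaction, 6683 and 3472, gave 960 and 608 with the covariate, 182 and 48 with Cd22 at or below 0, and 4160 up with Ngp above 1. Slopes on osteocalcin, 1464 and 1492, gave 3692 and 2868 after quantile normalization, 108 and 1 with the covariate, 147 and 183 with Ngp above 1, 182 and 2 with Cd22 at or below 0, and 2230 up by robust regression. The difference in animal number was -25.906 with Ngp above 1 (permutation p = 0.249) and -31.303 with Cd22 at or below 0 (p = 0.173). In arrays with Cd22 above 0 the differences of Ibsp, Bglap and Marco turned to -0.23, -0.061 and -0.175, and the slopes on calprotectin of Gata1, Slc4a1, Ibsp and Acan to -0.09, -0.024, -0.809 and -0.081. On the Ngp-low arrays Myb turned to -0.085 with the covariate and Bglap to 0.001 with Cd22 at or below 0. With the covariate and with Cd22 at or below 0, the interaction turned to 0.39 and 0.343 for Birc5 and 0.721 and 0.63 for Myb, and the osteocalcin slope to 0.378 and 0.415 for Birc5, 0.464 and 0.517 for Myb, and 0 and 0.067 for Cd22 (0 since it is then its own covariate). For the others the cause was not tested. The number of arrays in each Cd22 class, 21 and 17, limits all within-class fits.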
